A study of Mus musculus with 6 samples.

Results

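The genes of cholesterol synthesis and handling were examined in hippocampal mRNA of 5xFAD mice. The set was a list of 28 genes, chosen with earlier results of these data known. It held enzymes of the mevalonate and sterol pathways, regulators of the sterol response, and genes of sterol transport, export, storage and neuronal turnover. Of the 28, 26 were matched by name and Msmo1 was matched by its identifier, because the count table lists it under its older symbol Sc4mol. Mvd was not analysed here. The 27 genes with a row, of 17385 genes in the table, all passed the filter on low counts.

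Nerve tissue makes nearly all of its own cholesterol, since lipoproteins hardly cross the blood-brain barrier. Acetyl-CoA is built into mevalonate, mevalonate into squalene, and squalene is cyclised to lanosterol and trimmed to cholesterol. When membrane sterol is scarce, the escort protein Scap carries the transcription factors Srebf1 and Srebf2 (the SREBPs) from the endoplasmic reticulum to the Golgi, where they are cleaved, and the Insig proteins hold them back when sterol is ample. Neurons dispose of cholesterol mainly by hydroxylating it with Cyp46a1.

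The 5xFAD mouse carries human APP with the Swedish, Florida and London mutations and human presenilin-1 with a pair of familial mutations, both under the neuronal mouse Thy1 promoter, and amyloid builds up in its brain from an early age. Hippocampi of mice aged 3 months were compared, 3 5xFAD libraries with 3 wild-type (WT) libraries. The labels give no other difference between the groups, and the sources do not tie a library to a mouse, so p-values measure the spread between these samples. Because this is bulk tissue, fewer cells of a type and less RNA per cell cannot be told apart.

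Libraries held 18997677 to 23873280 counts in 5xFAD and 21440700 to 22132716 in WT. The row of Thy1, whose promoter also drives the transgenes, had 2776, 3316 and 2379 CPM (counts per library scaled to a common total) in 5xFAD, against 851, 887 and 813 in WT. Whether any of these reads came from the transgenes was not tested. Library composition differed with base content. Over all genes tested, Spearman's correlation between a gene's GC content and its deviation from the WT mean was -0.53, -0.66 and -0.07 in 5xFAD replicates 1, 2 and 3, and between -0.06 and 0.06 in the WT libraries. 5xFAD replicates 1 and 2 therefore stood apart from the other libraries, and each result below was also computed with a GC and length term that models this trend in each library, and with 5xFAD replicate 3 alone against WT. That last comparison has 1 5xFAD library and so holds no 5xFAD spread, and its fold changes are given as values without a test.

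Promoters are shown because sterol-responsive genes are classically read through a sterol regulatory element beside NF-Y sites. The sequences are from RefSeq on build GRCm38.p6 and cover the 250 bases upstream of a gene's start, which were searched on both strands for TCACNCCAC (a sterol regulatory element), CCAAT (the NF-Y box, ATTGG on the other strand) and GGGCGG (an Sp1 box). Each is written 5′ to 3′ along the gene's own strand, and capitals mark the sterol element and the CCAAT boxes in either orientation. Hmgcs1 (chr13:119690101-119690350, plus strand) is printed as the only one of the 22 genes searched with a match to TCACNCCAC. Hsd17b7 (chr1:169969206-169969455, minus strand) and Nsdhl (chrX:72918271-72918520, plus strand) are printed as genes with CCAAT boxes but no match to TCACNCCAC. Both are sterol enzymes that were higher in every 5xFAD library. Nr1h2 (chr7:44553966-44554215, minus strand) is printed as the only one of the 22 without a match to any of these motifs. It was lower in every 5xFAD library. Cyp46a1, not printed, was also lower in every 5xFAD library and had 1 CCAAT match and 4 GGGCGG matches.
Hmgcs1: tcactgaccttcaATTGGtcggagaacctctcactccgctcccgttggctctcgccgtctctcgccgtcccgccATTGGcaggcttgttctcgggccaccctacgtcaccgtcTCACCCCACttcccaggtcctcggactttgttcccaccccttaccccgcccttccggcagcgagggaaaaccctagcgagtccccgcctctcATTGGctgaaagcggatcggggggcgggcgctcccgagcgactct
Hsd17b7: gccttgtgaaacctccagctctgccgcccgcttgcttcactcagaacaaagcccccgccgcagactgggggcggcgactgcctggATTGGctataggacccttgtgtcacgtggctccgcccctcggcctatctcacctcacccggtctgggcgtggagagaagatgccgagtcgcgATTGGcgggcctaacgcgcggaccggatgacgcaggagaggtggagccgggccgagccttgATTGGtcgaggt
Nsdhl: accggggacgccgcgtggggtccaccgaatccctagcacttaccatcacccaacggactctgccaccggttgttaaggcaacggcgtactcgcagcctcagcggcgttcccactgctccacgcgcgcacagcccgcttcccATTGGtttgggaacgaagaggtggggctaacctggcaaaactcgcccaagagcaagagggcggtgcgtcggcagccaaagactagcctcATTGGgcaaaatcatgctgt
Nr1h2: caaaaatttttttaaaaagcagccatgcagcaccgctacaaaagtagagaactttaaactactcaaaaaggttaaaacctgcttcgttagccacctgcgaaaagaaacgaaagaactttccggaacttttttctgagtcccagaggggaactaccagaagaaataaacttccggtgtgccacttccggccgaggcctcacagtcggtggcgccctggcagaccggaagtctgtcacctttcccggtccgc

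Of the 27 genes, 22 were searched, with 30 starts between them, and Fdft1, Sqle, Fdps, Abcg1 and Stard4 were not. TCACNCCAC was found in 1 of the 30 promoters (3.33%), that of Hmgcs1, where it begins 137 bases before the start, against 1.05% of all 32851 promoters. CCAAT was found in 20 (66.67%), against 33.85% of all, and GGGCGG in 22 (73.33%), against 32.74% of all. By gene, 19 of the 22 had a CCAAT box and Nr1h2 had no match to any of the 3 motifs in this window. A match describes letters in the window and is not evidence of binding. Only exact matches to TCACNCCAC were searched, so a promoter without a match may still hold another form of the sterol element.

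No gene of the set passed the edgeR quasi-likelihood test at an adjusted p of 0.05, in either direction, while 93 genes of all those tested passed as higher (0.667%) and 13 as lower (0.0933%). At an unadjusted p under 0.05, 13 of the 27 were higher in 5xFAD, against 9.87% of all genes, and 2 were lower, against 9.03%. In 14 of the 27 every 5xFAD library was above every WT library, which held for 13.2% of all genes tested. In 2, Cyp46a1 and Nr1h2, every 5xFAD library was below every WT library, against 15.1% of all genes. The median log2 fold change over the set was 0.22, against -0.01 over all genes. Because the list was chosen with earlier results known, these shares and medians are descriptions and not a test of the set.

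With the GC and length term, 3 of the 27 passed as higher, Hmgcs1, Fdft1 and Sqle, where 1.07% of all genes did, and 0 passed as lower, where 0.201% did. The median was then 0.26 over the set and -0.01 over all genes. DESeq2, which called more genes altogether, called 11 of the 27 as higher, against 2.38% of all genes, and 0 as lower, against 1.26%. The 11 were Hmgcs1, Fdft1, Sqle, Cyp51, Msmo1, Nsdhl, Hsd17b7, Sc5d, Insig1, Stard4 and Soat1. Calls also turned on single libraries. Without 5xFAD replicate 2, 9 of the 27 passed as higher, against 1.36% of all genes, and 0 as lower, against 0.301%. Without 5xFAD replicate 3, which leaves the pair of 5xFAD libraries with the strong GC trend, 11 of the 27 passed as higher, against 12.3% of all genes, and 3 as lower, against 11.2%.

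**Figure D1:**
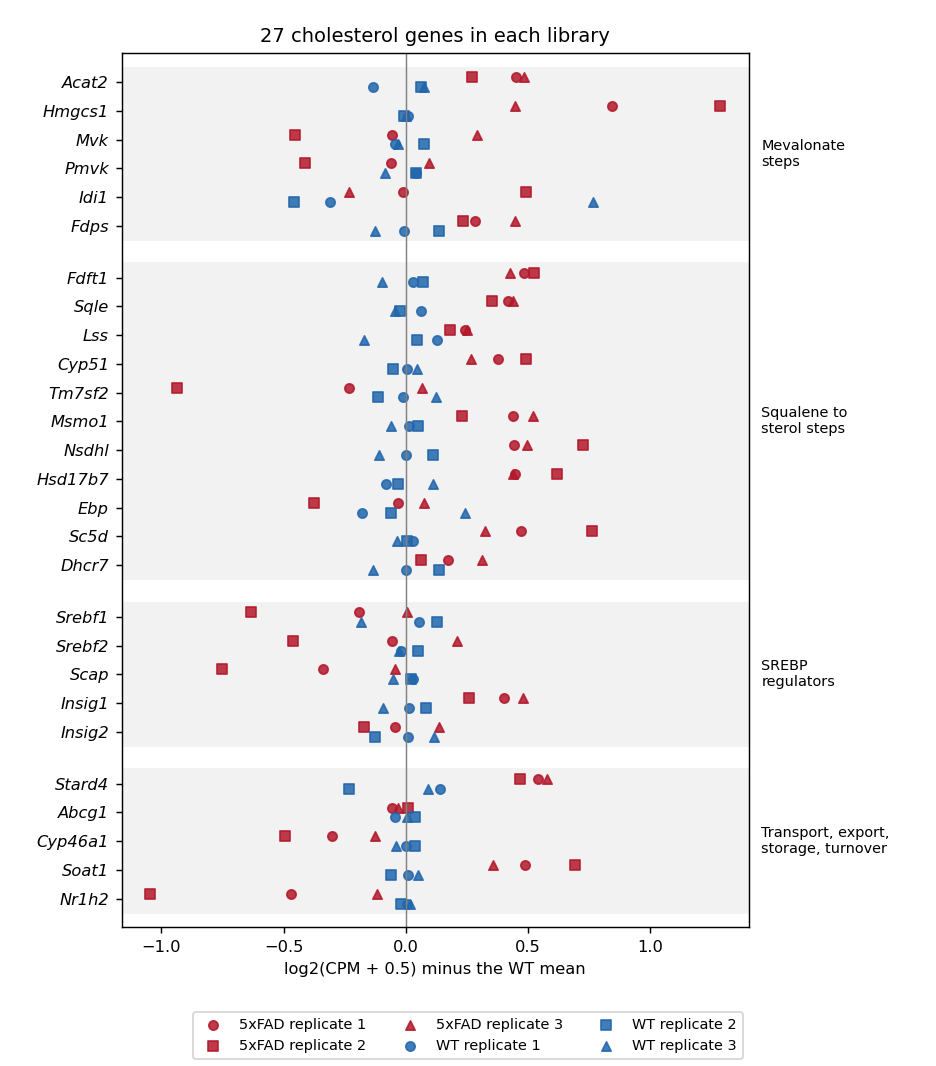
Log2 of CPM plus 0.5 in each library minus the WT mean, for 27 cholesterol genes (rows, by role); red points are the 5xFAD libraries and blue points the WT libraries. In 14 genes all red points lie right of all blue ones, as in 13.2% of all genes tested, and 5xFAD replicate 2 (red squares) is often the extreme point.

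The mevalonate steps held the gene with the largest fold change of the set, Hmgcs1, the cytosolic synthase that makes HMG-CoA (chr13:119690379-119708260, plus strand, GRCm38). Hmgcs1 had 466, 633 and 353 CPM in 5xFAD, against 261, 258 and 259 CPM in WT. The WT libraries lay within a few CPM of each other, the 5xFAD libraries were widely spread, and even the lowest of them was above every WT library. Hmgcs1 averaged 484 ± 141 CPM in 5xFAD and 259 ± 1.19 CPM in WT (SD, n = 3 each). Its log2 fold change was 0.90 (SE 0.19, adjusted p = 0.107 by the edgeR quasi-likelihood test), and 0.67 with the GC and length term (SE 0.11, adjusted p = 0.0298). With 5xFAD replicate 3 alone, the 5xFAD library closest to WT in base content, it was 0.46. Over all the alternatives its adjusted p ran between 0.000541 and 0.434.

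Acat2, the cytosolic thiolase that supplies acetoacetyl-CoA, had 21.8, 19.2 and 22.3 CPM in 5xFAD, against 14.4, 16.5 and 16.7 CPM in WT. The groups did not overlap, and the log2 fold change was 0.41 (SE 0.11, adjusted p = 0.19). Fdps, which makes farnesyl diphosphate, had 35.0, 33.8 and 39.3 CPM in 5xFAD, against 28.5, 31.5 and 26.2 CPM in WT. Again the lowest 5xFAD library was above the highest WT library, at 0.33 on the log2 scale (SE 0.11, adjusted p = 0.225) or, when GC and length were modelled, at 0.45 (SE 0.09, adjusted p = 0.0584). Mvk and Pmvk, the kinases that phosphorylate mevalonate in turn, overlapped between groups and were at -0.04 (SE 0.19) and -0.11 (SE 0.14), but at 0.22 (SE 0.10) and 0.09 (SE 0.08) with the GC and length term. Idi1, the isomerase of isopentenyl diphosphate, was at 0.00 (SE 0.34) with the widest WT spread of the set, 23.2 to 54.9 CPM.

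Summed over the 6 mevalonate genes, the level was 590.3, 759.3 and 484.8 CPM in 5xFAD, against 366.9, 368.5 and 393 CPM in WT. Hmgcs1 made up most of this sum in every library. The median log2 fold change of the 6 was 0.17, and 0.30 with the GC and length term.

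**Figure D2:**
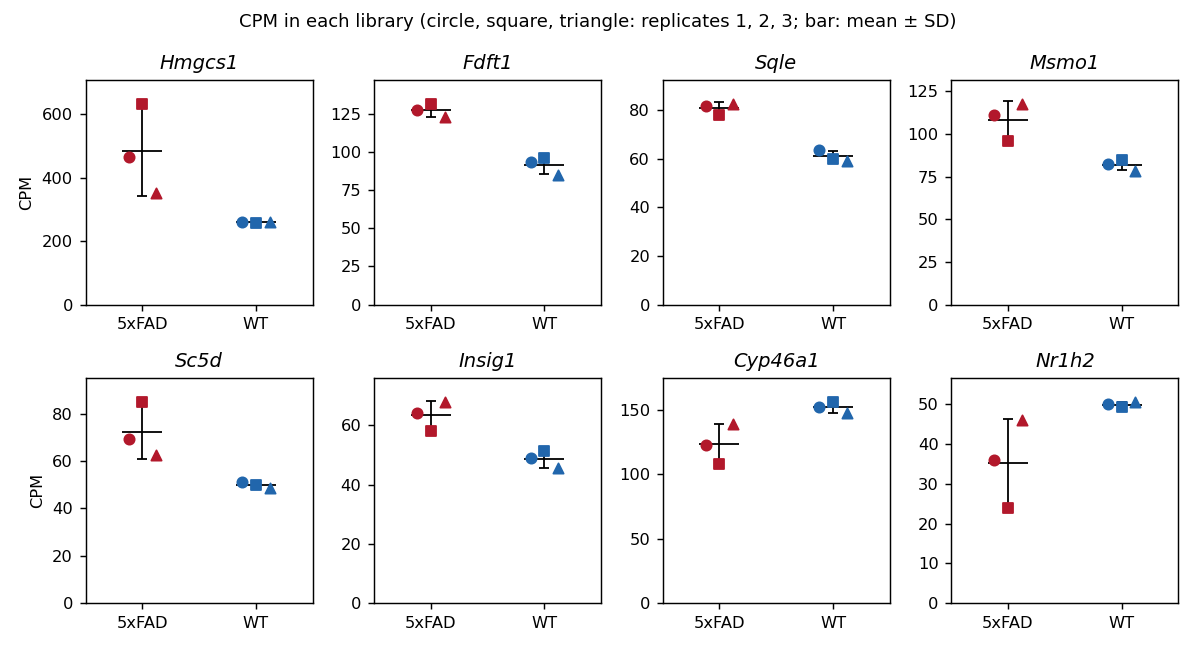
CPM of 8 genes in each library (points) with the mean (long bar) and SD (whiskers) of the 3 5xFAD and 3 WT libraries, each axis from 0. Hmgcs1 ranged between 353 and 633 CPM in 5xFAD with WT at 258 to 261, Fdft1 and Sqle had tight groups that did not overlap, and Cyp46a1 and Nr1h2 were lower in every 5xFAD library.

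Among the squalene to sterol steps, 8 of 11 enzymes had every 5xFAD library above every WT library, which held for 13.2% of all genes tested. Fdft1, squalene synthase and the first enzyme committed to sterols (chr14:63145150-63179578, minus strand, GRCm38), had 128, 131 and 123 CPM in 5xFAD, against 93.1, 95.6 and 85.1 CPM in WT. The libraries of each group lay close together and the groups were well apart. Fdft1 averaged 127 ± 4.39 CPM in 5xFAD and 91.3 ± 5.51 CPM in WT (SD, n = 3 each). Its log2 fold change was 0.48 (SE 0.08, adjusted p = 0.0531, the smallest of the set), and 0.55 with the GC and length term (SE 0.08, adjusted p = 0.0168). The range of its adjusted p over the alternatives was 8.49e-05 to 0.363.

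Sqle, the epoxidase that oxidises squalene (chr15:59315077-59331192, plus strand, GRCm38), had 81.7, 78.1 and 82.7 CPM in 5xFAD, against 63.8, 60.1 and 59.2 CPM in WT. All 5xFAD libraries were higher, with a gap between the groups wider than the spread within either. Sqle averaged 80.8 ± 2.43 CPM in 5xFAD and 61.0 ± 2.44 CPM in WT (SD, n = 3 each). Its log2 fold change was 0.41 (SE 0.08, adjusted p = 0.0771), or 0.37 with the GC and length term (SE 0.06, adjusted p = 0.0351), and the value with 5xFAD replicate 3 alone was 0.45. Over the alternatives the adjusted p ran from 0.00098 to 0.464. In the 5xFAD libraries Sqle was 0.42, 0.354 and 0.437 above the WT mean on the log2 scale, or 0.381, 0.307 and 0.412 with the term. Fdft1 was 0.483, 0.526 and 0.426 above it, or 0.538, 0.674 and 0.421 with the term. Their GC contents were 49.3% and 51.8%, and the part of base content in these values was not tested beyond the term.

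Nsdhl, a dehydrogenase that helps remove the methyl groups of lanosterol, had 43.2, 52.7 and 44.9 CPM in 5xFAD, against 31.7, 34.2 and 29.3 CPM in WT. Every 5xFAD library was higher, 5xFAD replicate 2 the most, and the log2 fold change was 0.56 (SE 0.11, adjusted p = 0.0857). Hsd17b7, the ketoreductase of the same demethylation complex, had 30.4, 34.3 and 30.2 CPM in 5xFAD, against 20.9, 21.7 and 24.0 CPM in WT, and was at 0.51 on the log2 scale (SE 0.10, adjusted p = 0.0958). When GC and length were modelled these were 0.40 (SE 0.09) for Nsdhl and 0.33 (SE 0.09) for Hsd17b7. The methyl oxidase Msmo1, which acts just before Nsdhl, had 111, 96.2 and 118 CPM in 5xFAD, against 82.7, 84.8 and 78.6 CPM in WT. It was higher in every 5xFAD library, at 0.40 (SE 0.10, adjusted p = 0.141), at 0.23 with the GC and length term (SE 0.13, adjusted p = 0.365), and the value with 5xFAD replicate 3 alone was 0.54. With the term, Msmo1 in 5xFAD replicate 2 was below every WT library, at -0.095 from the WT mean against -0.065 in WT replicate 3.

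The other squalene to sterol enzymes were mixed. Sc5d, the lathosterol desaturase, was at 0.53 (SE 0.12), the lanosterol demethylase Cyp51 at 0.38 (SE 0.09) and the lanosterol synthase Lss at 0.22 (SE 0.10), and in all 3 the groups did not overlap. With the GC and length term they were at 0.32 (SE 0.06), 0.26 (SE 0.06) and 0.31 (SE 0.09). The adjusted p by the edgeR quasi-likelihood test was then 0.0505, 0.0924 and 0.158. Dhcr7, the reductase of the last step of one branch, was at 0.18 (SE 0.11), with groups that overlapped. Tm7sf2, a sterol reductase, and Ebp, the sterol isomerase, were at -0.32 (SE 0.24) and -0.11 (SE 0.17), and both had their lowest value in 5xFAD replicate 2. In 5xFAD replicate 3 alone all 11 enzymes were above 0, with a median of 0.34. Their summed level was 668.9, 677.3 and 668 CPM in 5xFAD, against 520.2, 522.3 and 497.1 CPM in WT, groups that did not overlap, and the median log2 fold change was 0.40, or 0.31 with the GC and length term.

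**Figure D3:**
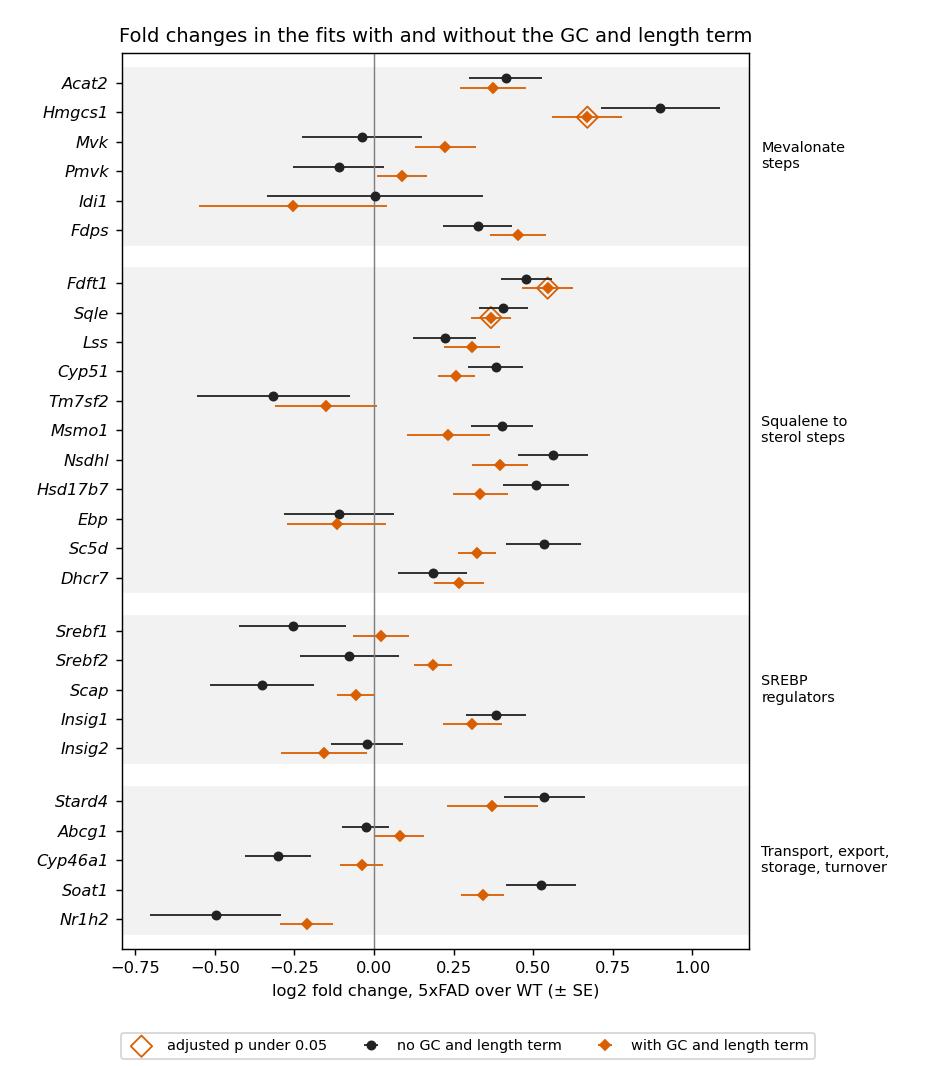
Log2 fold change of 5xFAD over WT with its SE for 27 genes, without (black) and with (orange) the GC and length term. Hmgcs1, Fdft1 and Sqle, ringed, passed an adjusted p of 0.05 with the term, and Srebf2 was at -0.08 without it and 0.19 with it.

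Among the SREBP regulators, Insig1, itself a sterol-regulated gene, was the only one of 5 whose groups did not overlap. Of all genes tested, 13.2% were higher in every 5xFAD library and 15.1% were lower in every one. Insig1 had 64.2, 58.1 and 67.8 CPM in 5xFAD, against 48.9, 51.4 and 45.4 CPM in WT. The lowest 5xFAD library was above the highest WT library, and the log2 fold change was 0.38 (SE 0.09, adjusted p = 0.149), or 0.31 with the GC and length term (SE 0.09, adjusted p = 0.173). Its relative Insig2, which acts in the same way but is less responsive to sterol, was at -0.02 (SE 0.11), with groups that overlapped.

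Scap had 93.0, 69.6 and 114 CPM in 5xFAD, against 120.4, 119 and 114 CPM in WT. 5xFAD replicates 1 and 2 were below every WT library while replicate 3 was level with the lowest, and Scap was at -0.35 on the log2 scale (SE 0.16, adjusted p = 0.277), or at -0.06 when GC and length were modelled (SE 0.06). Srebf1, which mainly drives fatty acid genes, had 44.9, 32.9 and 51.6 CPM in 5xFAD, against 53.4, 56.2 and 45.2 CPM in WT. These groups overlapped, and its log2 fold change was -0.26 (SE 0.17), or 0.02 with the GC and length term (SE 0.09). Srebf2, the main driver of cholesterol synthesis genes, was at -0.08 (SE 0.16), or 0.19 with the term (SE 0.06), and overlapped between groups. Summed over the 5 regulators, the level was 408.2, 322.4 and 478.7 CPM in 5xFAD, against 434.5, 443.7 and 418.4 CPM in WT, which overlapped.

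The genes of sterol transport, export, storage and turnover went in both directions. Soat1, which esterifies cholesterol for storage, had 38.4, 44.3 and 34.9 CPM in 5xFAD, against 27.4, 26.1 and 28.2 CPM in WT. All 5xFAD libraries were higher, by 0.53 on the log2 scale (SE 0.11, adjusted p = 0.108), or by 0.34 when GC and length were modelled (SE 0.07, adjusted p = 0.0624). Stard4, a soluble carrier that moves cholesterol between membranes, had 21.7, 20.5 and 22.2 CPM in 5xFAD, against 16.3, 12.5 and 15.7 CPM in WT. It too was higher in every 5xFAD library, at 0.54 (SE 0.13, adjusted p = 0.141), or 0.37 with the term (SE 0.14, adjusted p = 0.244). With the term the groups of Stard4 overlapped, with 5xFAD replicate 2 at 0.137 from the WT mean and WT replicate 1 at 0.144.

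Cyp46a1, the neuronal cholesterol hydroxylase, had 123, 108 and 139.5 CPM in 5xFAD, against 152, 156 and 148 CPM in WT. Every 5xFAD library was lower, replicate 2 the most and replicate 3 the least, and the log2 fold change was -0.30 (SE 0.10, adjusted p = 0.229). When GC and length were modelled it was -0.04 (SE 0.07, adjusted p = 0.77), and 5xFAD replicate 2 was then above the WT mean, by 0.076 on the log2 scale. Nr1h2, a nuclear receptor for oxysterols, had 36.0, 24.0 and 46.0 CPM in 5xFAD, against 50.1, 49.3 and 50.6 CPM in WT. The order of the 5xFAD libraries was the same, and the log2 fold change was -0.50 (SE 0.21, adjusted p = 0.26), or -0.21 with the term (SE 0.08, adjusted p = 0.249). Abcg1, an exporter of cholesterol to lipoproteins, differed by less than the spread within groups, at -0.03 (SE 0.07).

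The spread between 5xFAD libraries followed base content within the set. Transcript GC content ran between 41.9% in Idi1 and 60.6% in Nr1h2. Over the 27 genes its Spearman correlation with the log2 fold change was -0.81, and -0.41 with the GC and length term, described without a test since the points share their libraries. In single libraries it was -0.81, -0.87 and -0.51 in 5xFAD and -0.01, 0.42 and -0.34 in WT. The median deviation of the 27 genes from the WT mean was 0.24, 0.23 and 0.30 on the log2 scale in 5xFAD, and 0.01, 0.04 and -0.03 in WT. In 5xFAD, 15, 17 and 22 of the 27 genes were above the WT mean. The part of base content in the results of single genes was not tested beyond the GC and length term.

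**Figure D4:**
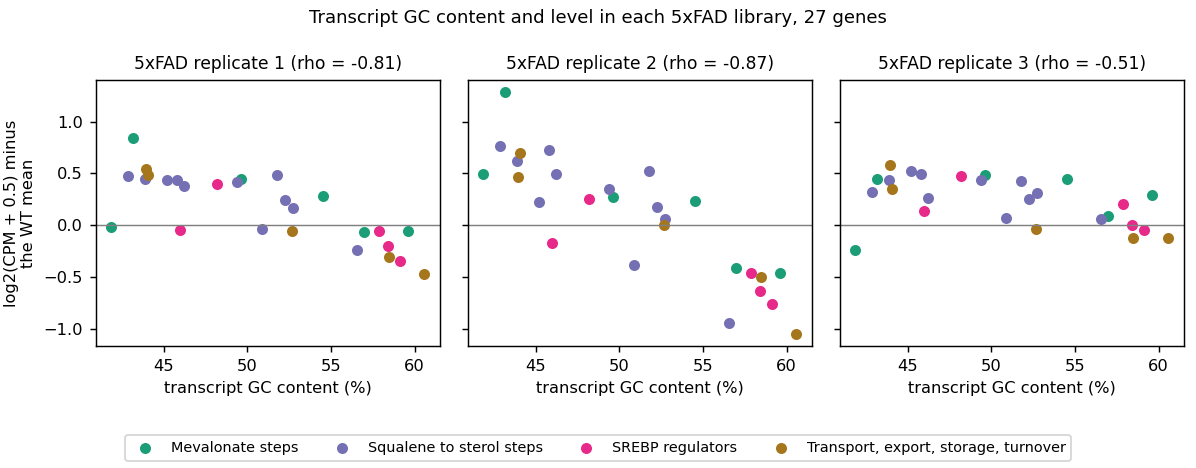
Log2 of CPM plus 0.5 minus the WT mean against transcript GC content (percent) for 27 cholesterol genes (points, coloured by role), with 1 panel for each 5xFAD library and its Spearman correlation above it. The points slope down steeply in 5xFAD replicates 1 and 2 (-0.81 and -0.87) and less in replicate 3 (-0.51), where 22 of the 27 lie above 0.

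Levels per transcript length placed the set's genes over a wide range. Hmgcs1 was highest, at 139.8 CPM per kb in 5xFAD and 74.9 in WT, followed by Cyp46a1 at 58.3 in 5xFAD and 71.9 in WT and Msmo1 at 53.0 in 5xFAD and 40.1 in WT. Hmgcs1 and Cyp46a1 were thus close in WT and far apart in 5xFAD. Fdft1 was at 34.4 CPM per kb in 5xFAD and 24.7 in WT, and Srebf2 at 32.4 in 5xFAD and 34.2 in WT. The lowest levels were those of Stard4, at 4.21 CPM per kb in 5xFAD and 2.91 in WT, and Soat1, at 4.68 in 5xFAD and 3.25 in WT. Counts behind single values ran between 128 (Tm7sf2 in 5xFAD replicate 2) and 11316 (Hmgcs1 in the same library), so no gene of the set was near the limit of detection.

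Some rows share sequence with other genes, and the sources do not say whether the counting used strand. Of the 100-base stretches of the longest transcript, 75.8% in Fdps, 35.3% in Acat2, 27.6% in Idi1, 21.5% in Fdft1 and 10.8% in Hmgcs1 also occur in another annotated transcript, so these 5 levels are uncertain. Fdft1 overlaps Ctsb, a lysosomal protease gene on the opposite strand, which had 679, 684 and 680 CPM in 5xFAD, against 577, 605 and 568 CPM in WT (log2 fold change 0.22, SE 0.07). The partners of Acat2, Acat3 and Tcp1, were at -0.03 and 0.06 on the log2 scale. Sqle, Nsdhl, Sc5d, Soat1 and Stard4 are not among the 5.

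Neighbouring pathways were read from 4 lists. No gene of any of them passed the adjusted threshold, with or without the GC and length term. Over all genes tested, 0.667% passed as higher and 0.0933% as lower, or 1.07% and 0.201% with the term. At an unadjusted p under 0.05 by the edgeR quasi-likelihood test, 9.87% of all genes were higher and 9.03% lower. Of 13 fatty acid synthesis genes tested, the other branch of SREBP targets, 0 were higher or lower at an unadjusted p under 0.05, the median log2 fold change was 0.08, and the genes with the smallest adjusted p were Elovl5 (log2 fold change 0.18, adjusted p = 0.264) and Me1 (log2 fold change 0.19, adjusted p = 0.338). Of 10 isoprenoid branch genes, which draw farnesyl diphosphate away from sterols, 2 were higher and 1 lower at that level, the median was -0.04, and Ggps1 was at 0.44 and Rabggta at -0.31. Of 8 genes of SREBP processing and sterol sensing, 0 were higher or lower at that level and the median was -0.10, with Rnf139 at 0.24 and Erlin1 at 0.20. Of 22 genes of other sterol transport and turnover, 3 were higher and 0 lower, with a median of 0.01. Among them Cyp7b1, an oxysterol hydroxylase, averaged 26.4 ± 2.49 CPM in 5xFAD and 19.1 ± 0.719 CPM in WT (SD, n = 3 each), and was at 0.46 (SE 0.11, adjusted p = 0.134), and Lipa, the lysosomal acid lipase, was at 0.36. With the GC and length term, Elovl5 was at 0.01, Me1 at 0.03, Ggps1 at 0.16 and Rabggta at -0.15. Rnf139 was then at 0.01, Erlin1 at 0.06, Cyp7b1 at 0.24 and Lipa at 0.20.

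Cell type markers differed between the groups beside these results. For the counts that follow, 13.2% of all genes tested were higher in every 5xFAD library and 15.1% were lower in every one. Summed over 10 astrocyte markers the level was 6435 to 7827 CPM in 5xFAD and 5769 to 6227 CPM in WT, with 3 of the 10 higher in every 5xFAD library. Slc1a2, the main glutamate transporter, carried most of this sum, and 5 of the 10, Aldh1l1, Gjb6, Fgfr3, Acsbg1 and Ntsr2, had log2 fold changes between -0.39 and -0.11 with groups that overlapped. Summed over 10 oligodendrocyte markers it was 4126 to 4164 CPM in 5xFAD and 4606 to 5600 CPM in WT, with 4 of the 10 lower in every 5xFAD library and Mbp carrying most of the sum. Both cell types make cholesterol. The 8 microglia markers summed to 535 to 679.5 CPM in 5xFAD and 329.8 to 337 CPM in WT, with 7 higher in every 5xFAD library. The 8 neuron markers overlapped, at 14090 to 17030 CPM in 5xFAD and 14180 to 14250 CPM in WT. The 4 choroid plexus markers were at 194 to 458.1 CPM in 5xFAD and 111.6 to 126.5 CPM in WT. Ttr carried most of this sum, 2 of the 4 were higher in every 5xFAD library, and Kl and Kcnj13 overlapped between groups. The 3 erythroid markers were at 0.935 to 1.65 CPM in 5xFAD and 48.2 to 77.2 CPM in WT. All 6 hippocampal neuron markers were present in every library but not at the same level. Prox1 and Dsp, markers of dentate granule cells, were higher in every 5xFAD library, at 0.66 and 0.67 on the log2 scale, and Fibcd1 and Spink8, markers of CA1 neurons, were lower in every one, at -0.72 and -0.52. None of the 4 passed the adjusted threshold, and with the GC and length term Spink8 did (adjusted p = 0.0372). The remaining hippocampal neuron markers, C1ql2 and Neurod6, were at 0.44 and 0.40 with groups that overlapped. The part of cell makeup in the results of the cholesterol genes was not tested.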

How the data were processed

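The deposited values are raw read counts per gene for 6 hippocampal libraries, made by the authors without normalization. Per the labels' processing notes, the tools were cutadapt 1.9.3, HISAT2 2.0.4, HTSeq 0.9.1 and edgeR 3.16.5, with build mm10. Of the annotation release and the strand setting, nothing is given in the sources used here. The table's 6 per-sample columns of normalized values and the columns of the authors' own comparison (fold changes and p-values) were not used. Sex, which the methods give in conflicting ways, was left out of the models.

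The counts were fitted with edgeR 4.0.16 in R 4.3.3. The filter filterByExpr with a minimum count of 10 left 13937 genes, libraries were scaled by TMM, and genotype was tested by the two-sided quasi-likelihood test on the whole table, with Benjamini-Hochberg adjustment over all genes tested and a threshold of 0.05. CPM used the scaled library sizes, and the SE was the log2 fold change over the square root of F. The alternatives were DESeq2 1.42.0, its size factors, upper-quartile scaling, no filter, a replicate block, leaving out each library, 5xFAD replicate 3 alone, and a GC and length term (natural splines of 4 degrees of freedom per library, GENCODE M21 on GRCm38), with 98.35% of tested genes annotated. Depth was 18997677 to 23873280 counts per library, and reads are not independent molecules.

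On simulated data from these counts without an added GC trend (13821 genes), the test recovered 43.3% of genes changed 1.5-fold. It recovered 83.3% of those changed 2-fold and 100% of those changed 4-fold, with 5 false calls. With a linear GC trend added to 5xFAD replicates 1 and 2 (13809 genes) it recovered 25.4%, 71.2% and 98.5%, with 29 false calls. Fitting GC and length then recovered 46.3%, 83.3% and 100%, with 8. The simulated spread was taken from the real counts without the term and so already held their GC trend. A linear trend is also one that the term can fit, so these shares need not hold for this design. The members and lists were chosen with earlier results of these data known. All members are named. Values per library are given for those past the threshold with or without the GC and length term and for those with the smallest adjusted p, until each role had at least 3. Hsd17b7, Msmo1, Nr1h2 and Idi1 have library values outside this rule, although Sc5d and Cyp51 had a smaller adjusted p than Msmo1. Of each neighbouring list, the 2 genes with the smallest adjusted p are named. Thy1, Ctsb, Acat3 and Tcp1 are given as context.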

Additional observations from a re-analysis of the deposited data

How the results depend on the processing

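The count of all genes called, 106, was 507 by DESeq2, 177 with the GC and length term, 20 with the replicate block, and 12 to 3273 when single libraries were left out. The count of cholesterol genes called higher, 0, was 11 by DESeq2, 3 with the GC and length term, 1 with that term and the replicate block (Fdft1), and 0 to 11 when single libraries were left out; the count called lower was 0 to 3. With 5xFAD replicate 3 alone, where the 5xFAD spread is assumed to be that of WT, 3 were called higher among 126 genes called in all, which is no test of genotype. The replicate numbers did not pair the samples (same-number correlations of deviations -0.002, -0.033 and -0.042, and 0 of 3 matched their own number best), and the replicate block alone called 0 cholesterol genes. The median log2 fold change of the set was 0.32 with 5xFAD replicate 3 alone and 0.21 to 0.29 when single libraries were left out. DESeq2 size factors, upper-quartile scaling and no filter left all 27 genes on the same side of 0 and of the threshold.

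Reversed values are given for the GC and length term, then for that term with the replicate block, then for 5xFAD replicate 3 alone. Mvk was at 0.22, 0.22 and 0.32. Pmvk was at 0.089, 0.090 and 0.11. Idi1 was at -0.25, -0.16 and -0.33. Srebf1 was at 0.021, 0.027 and 0.015, and Srebf2 at 0.19, 0.19 and 0.22. Abcg1 was at 0.081 and 0.078 under the first pair. With 5xFAD replicate 3 alone Tm7sf2 and Ebp were at 0.082 and 0.081 and Insig2 at 0.15. Leaving out single libraries gave -0.25 to 0.14 for Mvk, -0.23 to 0.030 for Pmvk, -0.22 to 0.50 for Idi1, -0.21 to 0.026 for Ebp, -0.25 to 0.092 for Srebf2 and -0.11 to 0.057 for Insig2. Why these values changed was not tested apart from the base content that the term models. With 3 libraries a group, the test recovered 25.4% of genes changed 1.5-fold in simulated data with an added GC trend and 43.3% without one. The simulated spread already held the real trend, so these shares need not hold for this design. All genes of the set but Hmgcs1 had a fold change smaller than 1.5-fold.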

Other observations

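Idi1, chosen after its values were seen, had 31.8, 45.3 and 27.2 CPM in 5xFAD, against 25.7, 23.2 and 54.9 CPM in WT. WT replicate 3 was thus 2.14 times the higher of the other WT libraries, on 1202 counts, and above every 5xFAD library. Of 10843 genes that averaged 5 CPM or more, 2 were at least 2-fold higher in WT replicate 3 than in both other WT libraries, Idi1 and Gm10222, against 0 in WT replicate 1 and 5 in WT replicate 2. Without WT replicate 3 the log2 fold change of Idi1 was 0.50.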
